A study of Mus musculus with 24 samples.

Results

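The 44 genes described here encode proteins of synaptic vesicles and of the machinery that releases their content. They were given as a list of symbols, and all 44 were found among 55414 gene identifiers and passed the filter on low counts, which left 19967 genes. By role they fall into 11 vesicle proteins, 11 calcium sensors, 10 fusion genes and 12 active zone genes. Their levels were measured in 24 libraries, each from about 500 neurons of a mouse aged about 6 months, cut by laser from the medial septum and the vertical diagonal band after immunostaining for choline acetyltransferase. The mice were Ts65Dn, a Down syndrome model that is trisomic for a stretch of chromosome 16 and the centromeric end of chromosome 17, or disomic 2N offspring of the same kind of cross between Ts65Dn mothers and C57Bl/6J Eicher × C3H/HeSnJ F1 fathers. The groups were Ts65Dn with maternal choline supplementation (n = 8), 2N with supplementation (n = 4), Ts65Dn on the control diet (n = 6) and 2N on the control diet (n = 6). The supplemented diet held 5.0 g/kg choline chloride and the control diet 1.1 g/kg. Offspring received the diet of their dam until weaning, and all ate the control diet from then on, so the diet groups differ in early exposure only. The design text describes 6 male mice per group, whereas the labels give 8 and 4 in the supplemented groups, and the labels were followed.

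A nerve terminal stores transmitter in vesicles whose membrane carries synapsins, synaptophysin, synaptogyrins and SV2 proteins. Active zone scaffolds such as Bassoon, Piccolo, RIM, ELKS and liprin hold vesicles at the release site, and Munc13 proteins prime them. Fusion is driven by SNARE proteins on the vesicle (VAMP) and on the plasma membrane (SNAP-25, syntaxin), held ready by complexins and triggered by synaptotagmins when calcium enters. Cholinergic neurons of the basal forebrain use this machinery to release acetylcholine in hippocampus and cortex. The RNA measured here came from their cell bodies and from what was cut with them. In such bulk samples, fewer cells of a type and less RNA per cell cannot be told apart.

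Depth ran from 4688258 to 13443438 counts per library (median 10010353), and 13125 to 22694 genes were detected. RNA of Chat, the gene of the stained enzyme, was under 1 CPM in 6 libraries (supplemented Ts65Dn 7, supplemented 2N 3, control-diet Ts65Dn 3, 5 and 6, and control-diet 2N 5), and Slc18a3, the vesicular acetylcholine transporter, was at 0 in 4 of 6 control-diet Ts65Dn libraries. The summed level of 10 cholinergic markers was 223 to 421 CPM (median 290) in supplemented Ts65Dn, 256 to 508 (272) in supplemented 2N, 8.68 to 226 (137) in control-diet Ts65Dn and 188 to 279 (254) in control-diet 2N. Markers of other cells were present too, and 3 lists had higher sums than the cholinergic one. In the same group order, 15 oligodendrocyte markers had median sums of 3630, 3110, 2970 and 3850 CPM. The medians were 2210, 2380, 2400 and 2940 CPM for 15 astrocyte markers, and 1650, 1750, 1190 and 1640 CPM for 11 GABAergic markers. Such lists hold different genes, so these sums do not give shares of cells. The 7 glutamatergic markers summed to 99.6 to 617 CPM (median 222), 99.5 to 286 (143), 295 to 3560 (987) and 160 to 849 (231) in the same group order, and Camk2a alone had medians of 192, 108, 896 and 199 CPM. Oligodendrocyte markers had a negative fold change for 15 of 15 genes in Ts65Dn against 2N on the control diet (median log2 fold change −0.48) and positive for 13 of 15 with supplementation in Ts65Dn (0.75). Astrocyte markers were negative for 13 of 15 and positive for 11 of 15 in the same comparisons, and GABAergic markers negative for 9 of 11 and positive for 8 of 11, and none of the genes on these 3 lists was called. The part of such other cells in the results below was not tested beyond the glutamatergic score. Mitochondrial rRNA took 17.8% to 43.3% of counts (median 32.9%) in supplemented Ts65Dn and medians of 20.2%, 19.9% and 23.1% in the other groups. In the deposited table, the columns of supplemented Ts65Dn 2 and 5 stand among those of the supplemented 2N mice, and results that rest on them are given with and without them. Counted as supplemented 2N, these libraries would give the 6 mice per group of the design text. Whether their genotype labels are right was not tested. Xist, a transcript of the inactive X chromosome of females, reached 80 to 237 counts in 4 libraries (supplemented 2N 2 and control-diet Ts65Dn 1, 2 and 6) and at most 25 elsewhere, in a study of male mice, and every library held at least 67 counts of Kdm5d, which lies on the Y.

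The promoters of 4 genes on which the results below turn are shown, as the 250 bases before the start of transcription in RefSeq (GRCm38.p6). Sv2b and Syt1 passed the test in at least 1 comparison, and Sncb with Cplx1 was among the most correlated pairs. They lie at chr7:75309263-75309512 (Sv2b, the outermost of its listed starts), chr10:109010976-109011225 (Syt1, likewise), chr13:54766596-54766845 (Sncb) and chr5:108550028-108550277 (Cplx1), all on the minus strand. Each is written 5′ to 3′ along the gene. The build of the deposited tables is not settled by their notes, so these coordinates are those of RefSeq alone. Capitals mark letters that match a motif on either strand, wherever they stand in the 250 bases. In Sv2b they are TTTATA, the reverse complement of the TATA box letters TATAAA. In the other 3 they are those of the GC box (GGGCGG or its reverse complement CCGCCC).
Sv2b: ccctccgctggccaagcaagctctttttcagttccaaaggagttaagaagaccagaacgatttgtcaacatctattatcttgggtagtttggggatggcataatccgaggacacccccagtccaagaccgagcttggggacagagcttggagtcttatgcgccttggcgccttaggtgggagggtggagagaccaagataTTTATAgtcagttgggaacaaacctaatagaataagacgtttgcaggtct
Syt1: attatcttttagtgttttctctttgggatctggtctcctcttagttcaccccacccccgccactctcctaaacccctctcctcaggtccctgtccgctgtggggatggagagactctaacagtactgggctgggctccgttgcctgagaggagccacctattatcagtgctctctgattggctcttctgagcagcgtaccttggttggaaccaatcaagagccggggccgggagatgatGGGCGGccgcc
Sncb: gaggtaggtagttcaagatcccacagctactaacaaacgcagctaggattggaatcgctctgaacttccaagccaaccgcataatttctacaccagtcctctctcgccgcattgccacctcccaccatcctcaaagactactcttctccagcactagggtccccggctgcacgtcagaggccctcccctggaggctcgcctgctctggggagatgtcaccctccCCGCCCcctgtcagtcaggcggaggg
Cplx1: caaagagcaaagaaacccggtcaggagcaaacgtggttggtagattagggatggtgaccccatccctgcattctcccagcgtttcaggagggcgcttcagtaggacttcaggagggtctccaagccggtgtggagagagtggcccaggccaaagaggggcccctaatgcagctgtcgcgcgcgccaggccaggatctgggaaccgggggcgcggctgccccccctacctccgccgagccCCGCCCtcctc

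The set of RefSeq promoters used here did not cover every gene, and held 42 promoters for 33 of the 44 genes. A GC box on either strand stood in 61.9% of these 42, against 32.7% of all 32851 promoters in the set. The median GC content of the 42 was 61.2%, against 52.4%. The letters TATAAA occurred on either strand in 2 of the 42 promoters (4.76%, against 12.4% of all), and both belong to Sv2b. TCAGCACC, the left arm of the RE1 element bound by the silencer REST, occurred in 7.14% (Napa, Ppfia3 and Syn1), against 1.32% of all, and the cyclic AMP response element TGACGTCA in 2.38% (Syn1), against 1.55%. Such matches are letters in a window, and binding was not measured. None of the 44 genes lies on chromosome 16. Syngr3, a vesicle protein gene, lies on chromosome 17 (GRCm38, 24685092 to 24689955), and its log2 fold change in Ts65Dn against 2N was 0.62 with supplementation and −0.15 without (adjusted p = 0.853 and 0.967). Its position was not set against the bounds of the trisomic end of that chromosome, so it is not given here as a trisomic gene.

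Levels between genes were compared in TPM, which is scaled by transcript length. The median of the mean levels was 48.7 TPM over the 44 genes, against 5.93 TPM over all tested genes. Cplx1, which encodes complexin 1, a clamp and helper of fusion, had the highest mean, 850 TPM ± 428 (SD over 24 libraries). Next came Snap25 (648 ± 365 TPM) and Syt1, the main calcium sensor of fast release (322 ± 153). Syp, the vesicle membrane protein synaptophysin, led the vesicle proteins at 197 ± 74.4 TPM, and Unc13a, the priming factor Munc13-1, led the active zone genes at 180 ± 58.2. The spreads of these neighbours overlap, so their order holds for the means alone. At the other end stood Synpr (6.06 ± 6.28 TPM), a relative of synaptophysin, Syt12 (7.11 ± 7.05) and the calcium-binding Doc2a (7.89 ± 12.7) and Doc2b (8.85 ± 5.89). Sv2b was above 1 CPM in 22 libraries, Synpr in 20 and Doc2a in 18, and the other 41 genes in all 24.

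**Figure D1:**
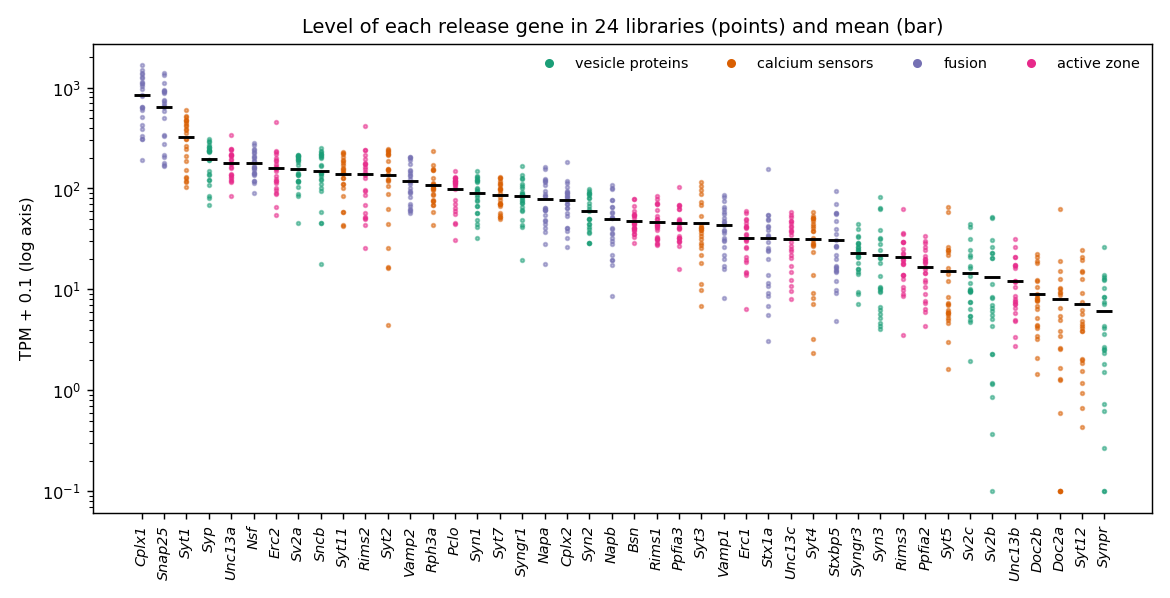
Level of each of the 44 genes in TPM + 0.1 on a log axis, 1 point per library and a black bar at the mean over 24 libraries, ordered by mean and coloured by role. Cplx1, Snap25 and Syt1 stand at the left with means of 850, 648 and 322 TPM, and Synpr at the right with 6.06 TPM.

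The genes were then compared across genotype and diet. Few passed the test on single genes (edgeR's quasi-likelihood test, Benjamini-Hochberg adjusted over all tested genes, called at an adjusted p under 0.05). Ts65Dn against 2N on the control diet, which asks what trisomy changes, gave 0 of 44 called, where 0.336% of all tested genes were called; 13 of the 44 had an unadjusted p under 0.05 (10.9% of all genes), DESeq2 called Bsn and Unc13a, and limma-voom 0. Supplemented against control-diet Ts65Dn, which asks what the maternal diet changes in trisomic mice, gave 1 of 44, Sv2b, which was lower (0.13% of all genes called); 12 had an unadjusted p under 0.05 (9.62%), DESeq2 called 3 (Sv2b, Sncb and Syt5) and limma-voom 0. Supplemented against control-diet 2N gave 0 (0.00501%), with 0 at an unadjusted p under 0.05 (6.92%), 0 by DESeq2 and 0 by limma-voom. Ts65Dn against 2N on the supplemented diet gave 0 (0.18%), with 2 at an unadjusted p under 0.05 (9.49%), and 0 by both other tools. Supplemented Ts65Dn against control-diet 2N, which asks how far trisomic mice with supplementation differ from the untreated disomic state, gave 2, Sv2b and Syt1, both lower (0.546%), and 8 at an unadjusted p under 0.05 (9.17%); DESeq2 called 3 (Sv2b, Syt1 and Unc13a) and limma-voom 2 (Syt1 and Unc13a). The interaction of genotype and diet gave 0 (0.00501%), with 4 at an unadjusted p under 0.05 (8.43%), and 0 by both other tools. These comparisons share groups, so they are not independent of each other.

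The 44 genes did not share a direction. The median log2 fold change over the 44 genes was 0.01 for Ts65Dn against 2N on the control diet, where that over all tested genes was −0.02. It was −0.11 for supplemented against control-diet Ts65Dn (0.04 over all genes), −0.07 in 2N (−0.06), 0.01 for Ts65Dn against 2N on the supplemented diet (0.09), −0.04 for supplemented Ts65Dn against control-diet 2N (0.00) and −0.08 for the interaction (0.13). On the control diet 22 of the 44 had a positive and 22 a negative fold change in Ts65Dn. Summed over the 44 genes, the level of a library lay between 9143 and 12960 CPM. On log2 TPM the medians were lower (−0.46 for Ts65Dn against 2N on the control diet), and so was the median over all genes on that scale (−0.32).

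**Figure D2:**
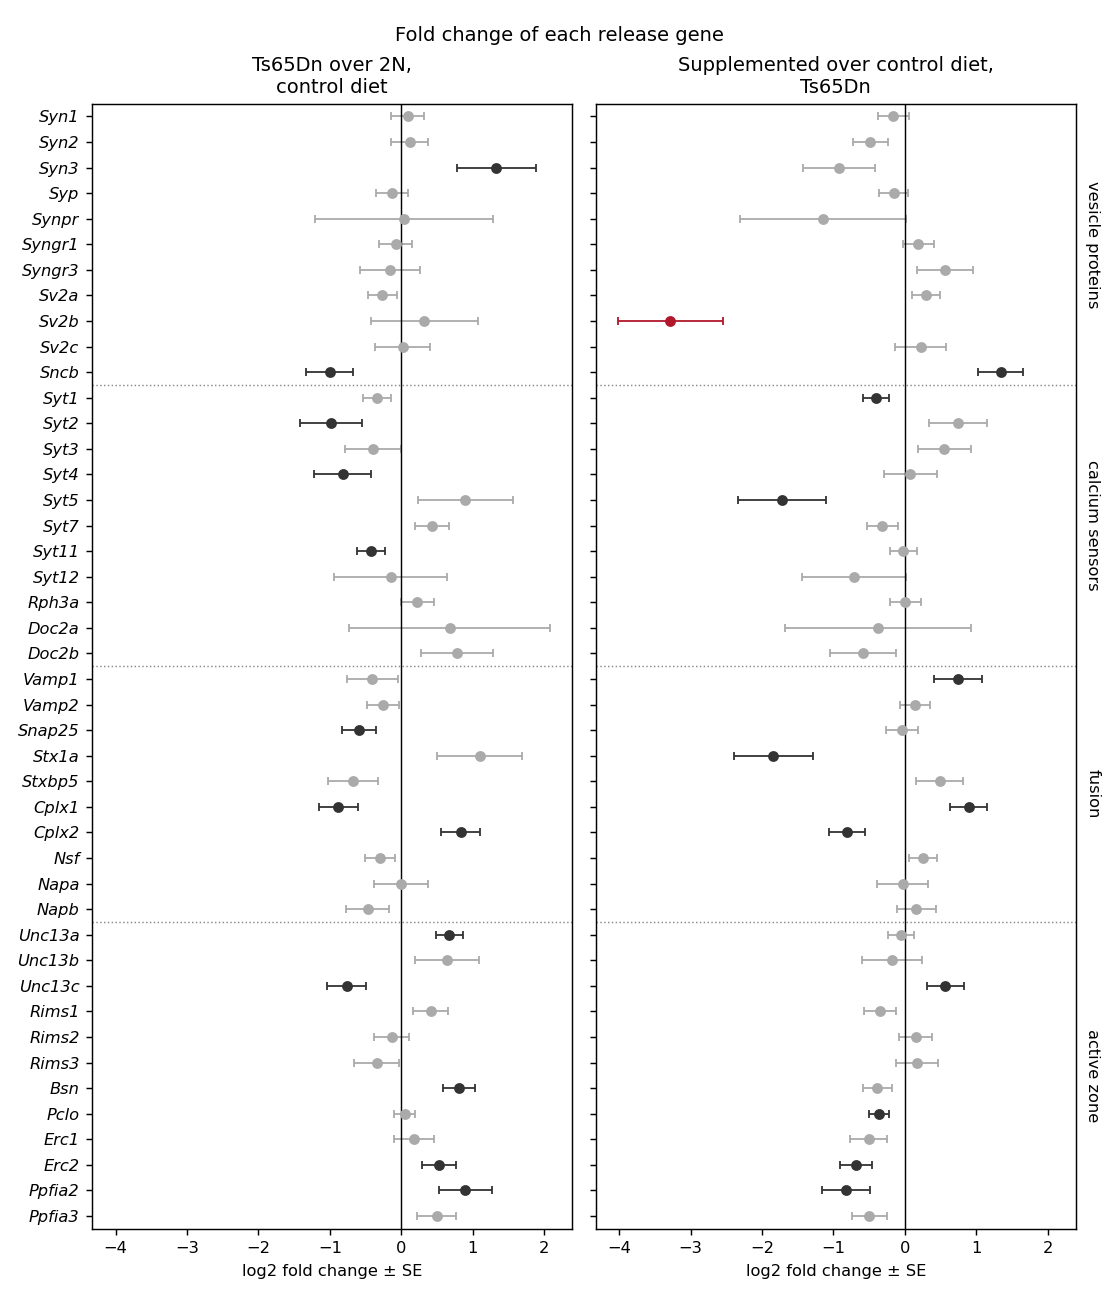
Log2 fold change ± SE of each of the 44 genes, by role, for Ts65Dn over 2N on the control diet (left) and supplemented over control diet in Ts65Dn (right). Red marks an adjusted p under 0.05, dark grey an unadjusted p under 0.05 and light grey the rest; the panels share the control-diet Ts65Dn libraries, and Sv2b at −3.29 is the red point.

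Among the vesicle proteins, Sv2b, a membrane glycoprotein of vesicles found in many glutamatergic synapses, was the gene that fell. Supplemented Ts65Dn libraries had 0 to 17.8 CPM (median 8.16), supplemented 2N libraries 6.59, 26.1, 40.4 and 21.3, control-diet Ts65Dn libraries 5.14 to 189 (median 72.8), and control-diet 2N libraries 2.85 to 167 (median 24.6). High values came from control-diet Ts65Dn 3, 5 and 6 and control-diet 2N 3 and 4, and the groups overlap at the low end. Sv2b fell by 3.29 on the log2 scale in supplemented against control-diet Ts65Dn (SE 0.73, adjusted p = 0.0464, edgeR), and 8 of 8 libraries lay under the control-diet mean, 3 of them under every control-diet Ts65Dn library. Against control-diet 2N it fell by 2.96 (SE 0.73, adjusted p = 0.0392, 8 of 8 libraries). The other differences did not pass: −1.41 in 2N with supplementation (adjusted p = 0.98), −1.55 for Ts65Dn against 2N on the supplemented diet (0.527), 0.33 on the control diet (0.96) and −1.88 for the interaction (0.698).

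The same 5 libraries with high Sv2b held the 5 highest values of Slc17a7, the vesicular glutamate transporter that marks glutamatergic neurons of the forebrain. Slc17a7 was at 798, 89.5 and 107 CPM in control-diet Ts65Dn 3, 5 and 6 and at 64.9 and 92.5 CPM in control-diet 2N 3 and 4, and it was at 0 in 3 of 8 supplemented Ts65Dn, 1 of 4 supplemented 2N, 1 of 6 control-diet Ts65Dn and 2 of 6 control-diet 2N libraries. Of the 7 glutamatergic markers 4 had a negative fold change in Ts65Dn against 2N on the control diet (median −0.21). Yet 1 of the 7 was called higher there (adjusted p = 0.0472, edgeR). At an unadjusted p under 0.05 there were 3 higher and 0 lower. In supplemented against control-diet Ts65Dn 6 were negative, and Camk2a, a calcium-dependent kinase, fell (log2 fold change −1.98, adjusted p = 0.0212). When the score of these markers entered the fit (an alternative added once the data were known), Sv2b was at −1.62 and −1.59 in the 2 comparisons where it had passed (adjusted p = 0.36 and 0.255). Without the 6 libraries with Chat under 1 CPM it was at −1.55 in Ts65Dn (adjusted p = 0.548) and at −3.37 against control-diet 2N (0.0221). With the prefix of the animal identifier as a factor, which the labels do not explain, it was at −2.10 and −1.92 (0.456 and 0.328). DESeq2 called both differences (0.00752 and 0.0261), and limma-voom called neither (0.499 and 0.335). Without supplemented Ts65Dn 2 and 5 Sv2b was at −2.93 and −2.60 (0.0843 and 0.0788). Leaving out any 1 of supplemented Ts65Dn 1 to 6 or control-diet Ts65Dn 3, 5 or 6 also ended the call between the diets (adjusted p = 0.0632 to 0.116). Against control-diet 2N, leaving out any 1 of supplemented Ts65Dn 1 to 6 or control-diet 2N 3 or 4 did so (0.0511 to 0.246).

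**Figure D3:**
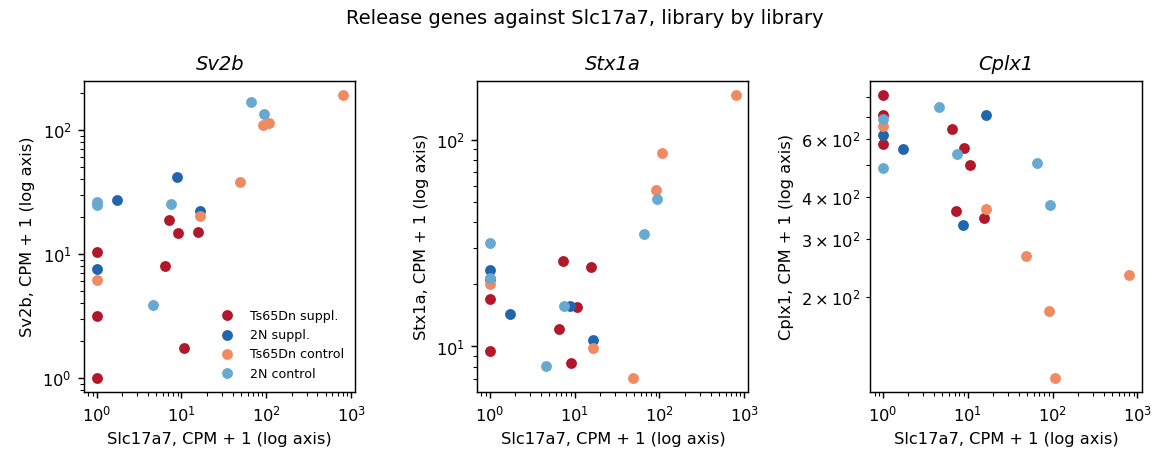
Level of Sv2b, Stx1a and Cplx1 (CPM + 1, log axis) against that of Slc17a7 (CPM + 1, log axis), 1 point per library, coloured by group. Sv2b and Stx1a are highest in the libraries with the most Slc17a7, up to 189 and 163 CPM, and the 3 lowest Cplx1 values are also among them.

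Sncb, β-synuclein, a soluble protein of nerve terminals, ran the other way. It had 125 to 292 CPM (median 210) in supplemented Ts65Dn, 201, 161, 68.9 and 196 CPM in supplemented 2N, 21.5 to 133 CPM (median 87.6) in control-diet Ts65Dn and 104 to 230 CPM (median 175) in control-diet 2N. Control-diet Ts65Dn was the low group, and 7 of 8 supplemented Ts65Dn libraries lay above all 6 of its libraries. The log2 fold change was 1.34 for supplementation in Ts65Dn (SE 0.32, adjusted p = 0.0641), −1.0 for Ts65Dn against 2N on the control diet (SE 0.33, 0.196) and 1.45 for the interaction (SE 0.48, 0.323), so none passed. DESeq2 called the first of these (adjusted p = 0.00676), and so did edgeR without supplemented Ts65Dn 2 and 5 (log2 fold change 1.42, adjusted p = 0.0318). Control-diet Ts65Dn 3, 5 and 6, with 59.8, 46.3 and 21.5 CPM, are also libraries with Chat under 1 CPM; without all such libraries the value was 0.85 (adjusted p = 0.501).

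Except for Syn3, the other vesicle proteins stayed closer to their group spread. Syp had 218 to 421 CPM (median 347) in supplemented Ts65Dn, 462, 321, 327 and 469 CPM in supplemented 2N, 245 to 602 (325) in control-diet Ts65Dn and 358 to 472 (436) in control-diet 2N, and all 4 groups overlap. Its log2 fold change was −0.16 for supplementation in Ts65Dn (95% interval −0.56 to 0.25) and −0.13 for Ts65Dn against 2N on the control diet (−0.56 to 0.30). Syn3, a synapsin that tethers vesicles to the cytoskeleton, had 23.4 to 92.9 CPM (median 41.6) in control-diet Ts65Dn and 7.89 to 32.8 (16.4) in control-diet 2N, a log2 fold change of 1.33 that did not pass (SE 0.56, adjusted p = 0.313). Of 6 control-diet Ts65Dn libraries 5 lay above every control-diet 2N library. With supplementation in Ts65Dn it was at −0.92 (SE 0.51, adjusted p = 0.609), and 6 of 8 libraries lay under every control-diet Ts65Dn library. For Syn1, Syn2, Synpr, Syngr1, Syngr3, Sv2a and Sv2c no comparison passed either, and with Synpr at 0.05 their log2 fold changes for Ts65Dn against 2N on the control diet lay between −0.26 and 0.12. In that comparison 6 of the 11 vesicle proteins were positive (median 0.02).

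Among the calcium sensors, Syt1, the sensor that triggers fast release, fell in supplemented Ts65Dn against control-diet 2N. It had 478 to 983 CPM (median 509) in supplemented Ts65Dn, 811.5, 1007, 863.5 and 969.6 CPM in supplemented 2N, 547 to 1040 (median 807) in control-diet Ts65Dn and 774 to 1290 (median 967) in control-diet 2N. Of 8 supplemented Ts65Dn libraries 7 lay below every library of both 2N groups, and the exception was supplemented Ts65Dn 2, at 983 CPM. The log2 fold change against control-diet 2N was −0.75 (SE 0.18, 95% interval −1.10 to −0.40, adjusted p = 0.0307, edgeR), and DESeq2 and limma-voom also called it (0.00682 and 0.0105). Against supplemented 2N it was −0.62 (SE 0.20, adjusted p = 0.293), and against control-diet Ts65Dn −0.41 (SE 0.18, 0.405).

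Without supplemented Ts65Dn 2 and 5 the Syt1 values were −0.96 against control-diet 2N and −0.83 against supplemented 2N (adjusted p = 0.000664 and 0.0214). Supplemented Ts65Dn also had the highest mitochondrial rRNA shares, and 2 and 5, at 17.8% and 21.1%, were the libraries of that group with the lowest. The other libraries of that group had 29% or more, and the highest shares in 2N were 22.6% with supplementation and 25.8% on the control diet. With that share in the fit, likewise added later, Syt1 was at −0.52 against control-diet 2N (adjusted p = 0.433). The share largely follows the groups compared, so this fit cannot tell it from genotype and diet. The call against control-diet 2N held without supplemented Ts65Dn 2 or 5 or control-diet 2N 6 and was lost without any other library of the 2 groups (adjusted p = 0.052 to 0.145). It was also lost without the libraries with Chat under 1 CPM (−0.61, adjusted p = 0.157), and it held with the identifier prefix as a factor (−0.89, 0.0151).

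Syt2, a fast sensor of many subcortical and brainstem neurons, was split within control-diet Ts65Dn. There it had 580 and 511 CPM in replicates 2 and 4 and 20.7 to 97.8 CPM in the other 4, against 343 to 520 CPM (median 452) in control-diet 2N. In supplemented Ts65Dn it had 147 to 528 CPM (median 405), with replicates 7 and 8 lowest, and in supplemented 2N 680.1, 485, 445 and 509 CPM. The log2 fold change in Ts65Dn against 2N on the control diet was −0.98 (SE 0.43, adjusted p = 0.36), and 0.75 for supplementation in Ts65Dn (SE 0.41, 0.601). In TPM, Syt2 made up 3.39% to 36.9% of the sum of Syt1 and Syt2 in control-diet Ts65Dn (median 10.2%) and 19.2% to 38.1% in control-diet 2N (median 29.8%). The medians were 34.7% in supplemented Ts65Dn and 30.8% in supplemented 2N.

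Of the other sensors none passed. Syt5 had 4.81 to 14.0 CPM (median 8.24) in supplemented Ts65Dn and 8.23 to 51.9 CPM (median 31.9) in control-diet Ts65Dn, a log2 fold change of −1.72 (SE 0.62, adjusted p = 0.255) that DESeq2 called. Syt4 and Syt11, synaptotagmins that do not act as sensors of fast release, were at −0.82 and −0.42 in Ts65Dn against 2N on the control diet (adjusted p = 0.437 and 0.399). Syt7, a sensor of slow release, and Rph3a, rabphilin, a Rab3 effector, were at 0.43 and 0.23. Over the 11 sensors, 5 were positive in that comparison and 6 negative (median −0.15), and 4 and 7 with supplementation in Ts65Dn (median −0.31).

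Among the fusion genes no comparison passed, but the 2 abundant complexins went opposite ways. Cplx1 had 346 to 812 CPM (median 570) in supplemented Ts65Dn, 617, 560.0, 329 and 707 CPM in supplemented 2N, 113 to 657 (median 249) in control-diet Ts65Dn and 378 to 749 (median 523) in control-diet 2N. In control-diet Ts65Dn 5 of 6 libraries lay under every control-diet 2N library, and replicate 4, at 657 CPM, was the exception. The log2 fold changes were −0.88 for Ts65Dn against 2N on the control diet (SE 0.28, adjusted p = 0.192), 0.89 for supplementation in Ts65Dn (SE 0.26, 0.197) and 0.91 for the interaction (SE 0.40, 0.522). Supplemented Ts65Dn and control-diet 2N differed by 0.01 (95% interval −0.49 to 0.52) in that fit. In TPM the means of these 2 groups were further apart, at 332 to 1140 TPM (mean 704, n = 8) in supplemented Ts65Dn and 833 to 1660 TPM (mean 1230, n = 6) in control-diet 2N, while the median over all genes was lower too on log2(TPM + 1), at −0.53.

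Cplx2, complexin 2, the paralogue that prevails in many excitatory forebrain neurons, had 235 to 502 CPM (median 296) in supplemented Ts65Dn, 309.5, 321.5, 182.5 and 322 CPM in supplemented 2N, 258 to 1430 (448) in control-diet Ts65Dn and 221 to 410 (316) in control-diet 2N. Control-diet Ts65Dn 3, the library with the most Slc17a7, held the 1430 CPM. Its log2 fold change was 0.84 in Ts65Dn against 2N on the control diet and −0.81 for supplementation in Ts65Dn (adjusted p = 0.196 and 0.219). In TPM, Cplx1 made up 62.4% to 93.7% of the sum of Cplx1 and Cplx2 in control-diet Ts65Dn (median 77.3%) and 91.3% to 95.1% in control-diet 2N (median 94.0%). The medians were 93.0% in supplemented Ts65Dn and 93.7% in supplemented 2N, and control-diet Ts65Dn 2 and 4 lay within the range of supplemented Ts65Dn. No test was made of these shares.

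**Figure D4:**
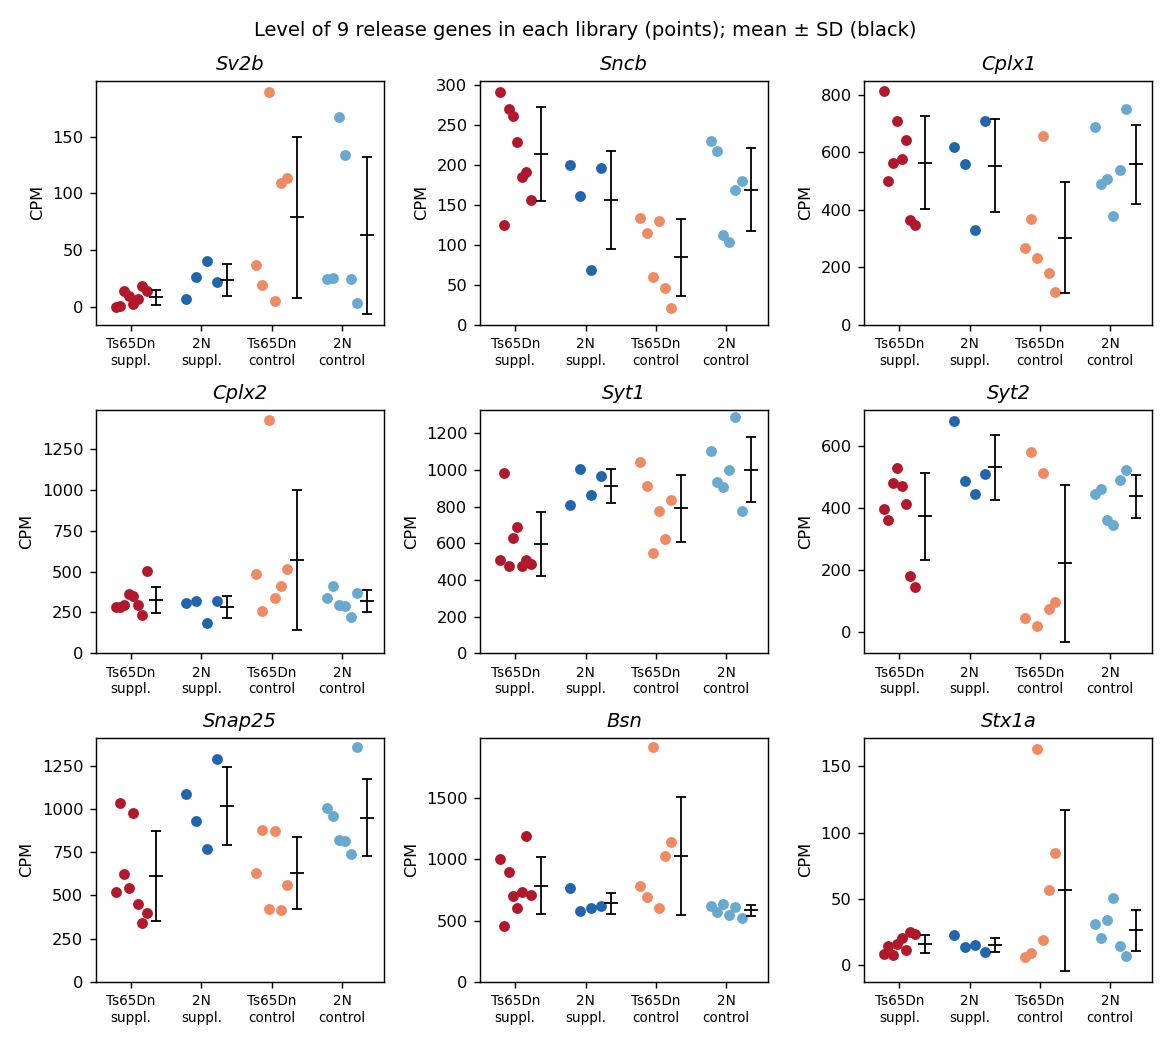
CPM of 9 genes in each library (points) of 4 groups, with the mean ± SD in black; the groups are, from the left, supplemented Ts65Dn (n = 8), supplemented 2N (n = 4), control-diet Ts65Dn (n = 6) and control-diet 2N (n = 6). Control-diet Ts65Dn is low for Sncb and Cplx1 and wide for Sv2b, Syt2 and Stx1a, and 7 of 8 supplemented Ts65Dn libraries are low for Syt1.

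Snap25, the plasma membrane SNARE, had 340 to 1034 CPM (median 532) in supplemented Ts65Dn, 1087, 928.8, 765.8 and 1290 CPM in supplemented 2N, 414 to 876 (593) in control-diet Ts65Dn and 739 to 1360 (892) in control-diet 2N. Supplemented Ts65Dn 2 and 5, at 1034 and 979 CPM, were the high libraries of their group, and the other 6 lay below every supplemented and control-diet 2N library. The log2 fold change for Ts65Dn against 2N was −0.74 on the supplemented diet (SE 0.24, adjusted p = 0.314) and −0.60 on the control diet (SE 0.24, 0.277), and it was −0.64 for supplemented Ts65Dn against control-diet 2N (SE 0.22, 0.226). Without supplemented Ts65Dn 2 and 5 the supplemented difference was −1.09 and was called (adjusted p = 0.00622). With the mitochondrial rRNA share in the fit it was −0.19 (adjusted p = 1), and here too that share cannot be told from the groups compared.

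Stx1a, syntaxin 1A, the partner of SNAP-25, had 7.32 to 24.9 CPM (median 15.3) in supplemented Ts65Dn, 22.5, 13.3, 14.7 and 9.74 CPM in supplemented 2N, 6.04 to 163 (37.7) in control-diet Ts65Dn and 7.05 to 50.6 (25.6) in control-diet 2N. The highest values, 163, 84.8 and 56.4 CPM, came from control-diet Ts65Dn 3, 6 and 5, the libraries high in Slc17a7 and low in Chat, whose part in the levels of Stx1a, Cplx1 and Cplx2 was not tested. Its log2 fold change for supplementation in Ts65Dn was −1.84 (SE 0.56, adjusted p = 0.208). Stxbp5, tomosyn, an inhibitor of SNARE assembly, had 37.99, 78.2, 77.2 and 43.98 CPM in supplemented 2N and 48.6 to 157 CPM (median 103) in control-diet 2N. That log2 fold change of −0.72 did not pass (SE 0.40, adjusted p = 0.86), although it had the smallest p of the 44 genes in the comparison. Its levels in Ts65Dn were 52.8 to 122 CPM (median 85.3) with supplementation and 19.6 to 98.9 CPM (62.1) without. Vamp2, the main vesicle SNARE, and Nsf, the ATPase that takes SNARE complexes apart, were at −0.25 and −0.30 in Ts65Dn against 2N on the control diet. Of the 10 fusion genes 8 were negative there (median −0.35), and 6 were positive with supplementation in Ts65Dn (median 0.15).

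Among the active zone genes, Bsn, Bassoon, a giant scaffold of the release site, had 454 to 1190 CPM (median 719) in supplemented Ts65Dn, 770.3, 575.6, 604.6 and 616.6 CPM in supplemented 2N, 602 to 1920 (median 908) in control-diet Ts65Dn and 525 to 636 (median 594) in control-diet 2N. Of 6 control-diet Ts65Dn libraries 5 lay above every control-diet 2N library, and replicate 3 held the 1920 CPM. The log2 fold change between them was 0.81 (SE 0.22, 95% interval 0.38 to 1.25, adjusted p = 0.106), which DESeq2 called (0.0462). Without control-diet Ts65Dn 3 it was 0.54 (adjusted p = 0.335), and without control-diet Ts65Dn 2 or 4 edgeR called it (0.0459 and 0.03). Without the libraries with Chat under 1 CPM it was 0.24 (adjusted p = 0.905), and with the mitochondrial rRNA share as a covariate 0.90 (0.00391).

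Unc13a, which readies docked vesicles for fusion, had 475 to 702 CPM (median 574) in supplemented Ts65Dn, 513, 410.1, 471 and 373 CPM in supplemented 2N, 441 to 810 (586) in control-diet Ts65Dn and 283 to 455 (394) in control-diet 2N. On this scale 8 of 8 supplemented and 5 of 6 control-diet Ts65Dn libraries lay above every control-diet 2N library. The log2 fold change in Ts65Dn against 2N on the control diet was 0.67 (SE 0.19, 95% interval 0.30 to 1.05, adjusted p = 0.135), and 0.62 for supplemented Ts65Dn against control-diet 2N (SE 0.18, 0.141). Neither passed with edgeR. DESeq2 called both, and limma-voom the second. Supplementation in Ts65Dn gave −0.05 (95% interval −0.40 to 0.30). In TPM the order of the groups was another, with an Unc13a mean of 164 TPM ± 62.9 (SD, n = 8) in supplemented Ts65Dn, 215 ± 28.0 (n = 4) in supplemented 2N, 216 ± 65.8 (n = 6) in control-diet Ts65Dn and 142 ± 26.1 (n = 6) in control-diet 2N.

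Erc2, which encodes an ELKS scaffold also called CAST, had 134 to 358 CPM (median 191) in supplemented Ts65Dn, 240.7, 228, 296 and 292 CPM in supplemented 2N, 147 to 501 (336) in control-diet Ts65Dn and 204 to 274 (232) in control-diet 2N. Control-diet Ts65Dn was the high group, and 5 of its 6 libraries lay above every control-diet 2N library. The log2 fold changes were −0.69 for supplementation in Ts65Dn and 0.53 for Ts65Dn against 2N on the control diet (adjusted p = 0.233 and 0.382). The interaction was −0.87 (SE 0.35, adjusted p = 0.459). Ppfia2, liprin-α2, an organiser of active zones, was at 0.90 in Ts65Dn against 2N on the control diet and −0.82 with supplementation in Ts65Dn (adjusted p = 0.301 and 0.346). Unc13c, Munc13-3, went opposite to its relative Unc13a in control-diet Ts65Dn, at −0.77 (SE 0.28, adjusted p = 0.218). Pclo, Piccolo, was at −0.36 with supplementation in Ts65Dn (SE 0.14, 0.296). Of the 12 active zone genes 9 were positive in Ts65Dn against 2N on the control diet (median 0.45), and 9 were negative with supplementation in Ts65Dn (median −0.35). These comparisons share the control-diet Ts65Dn libraries.

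**Figure D5:**
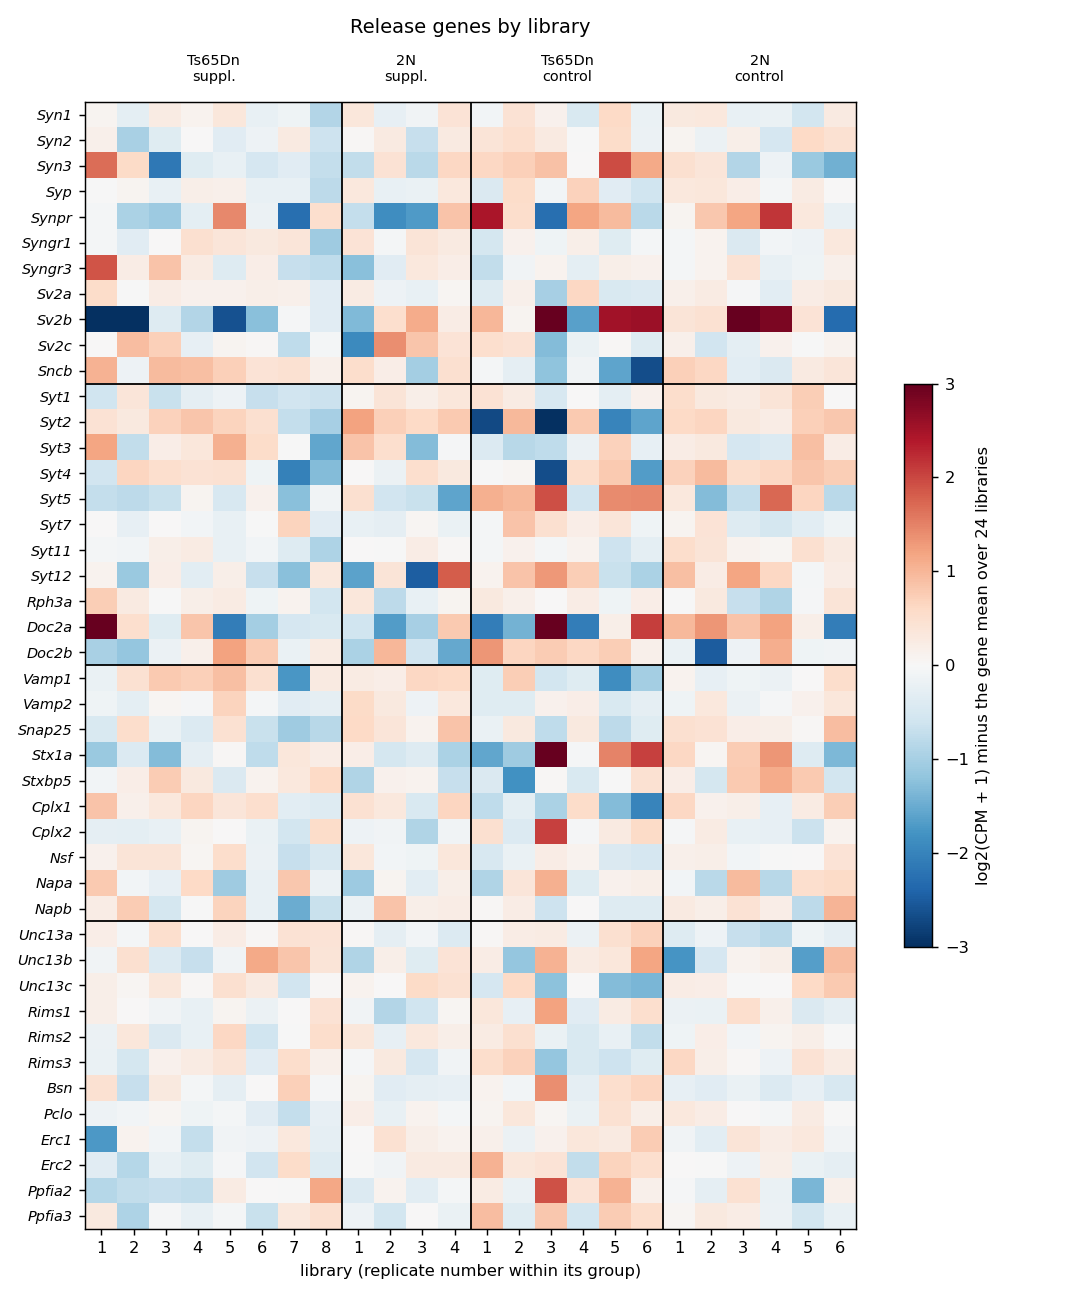
Log2(CPM + 1) of each of the 44 genes minus its mean over 24 libraries, with genes grouped by role down the side and libraries by group across; red is higher and blue lower. Control-diet Ts65Dn 3, 5 and 6 differ from the rest of their group in genes of every role, among them Sv2b, Syt5, Stx1a and Bsn (high) and Sncb, Cplx1, Snap25 and Unc13c (low).

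From library to library, after group means were taken out, the median correlation of log2 CPM was 0.02 over 24 libraries and 946 pairs of genes. Pairs lay far to both sides of it, so this median does not show whether sets of genes moved together or opposite. The highest pair was Sv2a with Syt2 (Pearson r = 0.84, Spearman rho = 0.76, r = 0.67 without the 2 libraries farthest from the median of the first-named gene). Next were Sncb with Cplx1 (0.82, 0.78 and 0.72) and Vamp1 with Unc13c (0.78, 0.78 and 0.78). The lowest were Stx1a with Unc13c (−0.76, −0.79 and −0.83), Syt4 with Bsn (−0.74, −0.58 and −0.48) and Syt2 with Ppfia3 (−0.72, −0.69 and −0.70). These are the extremes of all pairs, are given as a description, and share library, depth and cell mixture.

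Other genes of the release pathway, 54 listed and 53 tested, gave 0 calls with edgeR in any of the 6 comparisons. At an unadjusted p under 0.05 the counts were 5 for Ts65Dn against 2N on the control diet (9.43%, against 10.9% of all genes), 6 for supplementation in Ts65Dn (11.3%, against 9.62%) and 1 for supplementation in 2N (1.89%, against 6.92%). They were 6 for Ts65Dn against 2N with supplementation (11.3%, against 9.49%), 6 for supplemented Ts65Dn against control-diet 2N (11.3%, against 9.17%) and 3 for the interaction (5.66%, against 8.43%). DESeq2 called Tspoap1 and Rimbp2 for Ts65Dn against 2N on the control diet, Cplx3 in 3 of the comparisons and Scamp1 in 1, and limma-voom none. Tspoap1, RIM-binding protein 1, had 516 to 767 CPM (median 627) in control-diet Ts65Dn and 259 to 516 (388) in control-diet 2N (log2 fold change 0.72, SE 0.21, adjusted p = 0.15). Slc17a7 had the smallest p for supplementation in Ts65Dn (−4.98, adjusted p = 0.0661), Scamp1, a vesicle carrier protein, for supplemented Ts65Dn against control-diet 2N (−0.86, 0.183), Cadps, a priming factor of dense-core vesicles, for Ts65Dn against 2N on the supplemented diet (−0.50, 0.425), and Rimbp2 for the interaction (−1.07, 0.358). Cplx3, with the smallest p for supplementation in 2N (adjusted p = 0.57), was at 0 in all 4 supplemented 2N and in 3 of 6 control-diet 2N libraries, so no fold change is given.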

How the data were processed

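Expected counts per gene in the deposited series table, which the authors made with RSEM, carry no normalization. TPM, which the authors scaled by transcript length, come from the deposited file of each sample. Per the submitters' processing notes, Trimmomatic 0.39, STAR and RSEM were used, with the builds GRCm39 and mm10 named without their roles; no version of the last 2 tools is named there. Libraries were stranded, from total RNA, 1 library per sample of about 500 neurons, per the labels' protocols. For the tests the expected counts were made whole by rounding. Of 55414 identifiers, 52081 matched a symbol.

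Genes were kept with filterByExpr at its minimum count of 10 (19967 genes), normalized by TMM and compared with edgeR's quasi-likelihood test (edgeR 4.0.16, R 4.3.3) in 1 fit over all 24 libraries, two-sided, with Benjamini-Hochberg adjustment over all tested genes. CPM uses the TMM-scaled library size. Log2 fold changes are from the fit, with their standard error (SE), and 95% intervals are 1.96 SE to each side (normal approximation). A library is said to lie under or over the mean of a group by its log2 CPM, with a prior count of 2. Marker scores are mean centred log2 CPM.

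The 44 genes, their roles and all lists were chosen with earlier results of these data known. Genes given with full statistics are those called in any comparison, the 2 with the smallest p in each comparison and the most abundant of each role; Cplx2, Stx1a, Syt2 and the other genes shown were chosen after their values were seen. Alternatives were DESeq2 1.42.0 (its size factors, and its Wald test), limma-voom (limma 3.58.1), a robust fit, no filter, the compared groups alone, the identifier prefix (14 to 17) as a factor or prefix 17 alone, libraries left out, and limma on log2(TPM + 1) or log2(TPM + 0.1). Other alternatives were chosen after seeing the data: the removal of supplemented Ts65Dn 2 and 5 or of the 4 libraries with 50 or more Xist counts, and the glutamatergic score and the mitochondrial rRNA share as covariates.

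Groups come from the labels; replicate numbers follow accession order. Diet was given to dams and litters are not labelled, so animals were treated as independent and no p-value takes litters into account. The identifier prefix, whose meaning is not stated, is spread unevenly over the groups. On simulated data with known changes, 4-fold and 8-fold changes were recovered in 24.4% and 39.8% of genes for supplementation in Ts65Dn, 16.1% and 36.8% for supplementation in 2N, and 18.9% and 37.6% for Ts65Dn against 2N on the control diet. The changed genes were drawn at random from all tested genes, whose median mean level was 7.47 CPM. That of the 44 genes was 189 CPM, so these shares do not give the recovery for the 44 genes. Counts carry no molecular identifiers.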

Additional observations from a re-analysis of the deposited data

Results flagged for a closer look

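Of 40 groups of 4 to 8 libraries examined over the named genes, 1 held a library far from the others. Syp in supplemented Ts65Dn replicate 8 was at 218 CPM, where the other 7 libraries had 318 to 421 CPM, and its gap to the nearest took up 0.573 of the range of the group. Chance gives about 1 such group in 20, so 1 in 40 is not more than that.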

How the results depend on the processing

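The counts of called genes moved as follows. For supplementation in Ts65Dn (1 called) the count was 0 with limma-voom, the robust fit, the compared groups alone, the identifier prefix as a factor, all 3 settings on TPM, the glutamatergic score as a covariate, and without the 2 libraries of fewest genes (control-diet Ts65Dn 3 and supplemented Ts65Dn 7), those with Chat under 1 CPM or those with Xist counts; it was 3 with the DESeq2 Wald test, 5 with no filter and 2 with the mitochondrial rRNA share. For supplemented Ts65Dn against control-diet 2N (2 called) it was 1 with DESeq2 size factors, the robust fit, the prefix, either covariate and without the libraries with Chat under 1 CPM, 0 with the compared groups alone or unfiltered TPM, and 3 with the DESeq2 Wald test, no filter or log2(TPM + 1). For Ts65Dn against 2N on the control diet (0 called) it was 2 with the DESeq2 Wald test, 5 with no filter and 3 with the mitochondrial rRNA share. For Ts65Dn against 2N on the supplemented diet (0 called) it was 1 with no filter and 2 without supplemented Ts65Dn 2 and 5. The other 2 comparisons gave 0 in every setting. An unchanged count can hide a change of gene. For supplementation in Ts65Dn, without supplemented Ts65Dn 2 and 5, Sncb was called and Sv2b was not. With 1 library left out in turn, the counts ran from 0 to 3, 0 to 2, 0 to 2 and 0 to 0 in the order above.

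The median over the 44 genes for supplementation in Ts65Dn moved to −0.286 with the prefix, and to −0.3, −0.303 and −0.3 on log2(TPM + 1), log2(TPM + 0.1) and unfiltered log2(TPM + 1). It was −0.184 without supplemented Ts65Dn 2 and 5, −0.17 without the libraries with Xist counts, −0.0637 with no filter, −0.0541 without the 2 libraries of fewest genes, −0.051 with the mitochondrial rRNA share and −0.00846 without the libraries with Chat under 1 CPM, and it ran from −0.192 to −0.0459 with 1 library left out. In the same order of TPM settings it was −0.56, −0.587 and −0.56 for Ts65Dn against 2N with supplementation, −0.461, −0.489 and −0.461 for that contrast without it, and −0.725, −0.761 and −0.725 for supplemented Ts65Dn against control-diet 2N; the median over all filtered genes on log2(TPM + 1) was −0.163, −0.452, −0.317 and −0.528 in these 4 comparisons. Without the 2 libraries of fewest genes the control-diet median was −0.118, and it ran from −0.118 to 0.0385 with 1 library left out.

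Direction reversed for genes that had not passed: Sv2b with supplementation in 2N (0.385 with the prefix, 0.484 with the glutamatergic score) and Stxbp5 in the same comparison (0.151, 0.147 and 0.151 on TPM). With 1 library left out, Sv2b ran from −3.55 to −2.81 and from −3.23 to −2.38 in its 2 calls, passing in 5 and 6 of 14 fits, and Syt1 from −0.89 to −0.665, passing in 3 of 14. The cause of these moves was not tested. No paired analysis was possible because the labels tie no mouse to a mouse of another group. Groups held 4 to 8 libraries. The common biological coefficient of variation, estimated over all tested genes and not over the release genes alone, was 1.4.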
